A study of Homo sapiens with 4 samples.

Results

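The *MYC* network and its growth targets are described here through 8 genes, named by a list of symbols that was drawn up with earlier results of these data known, the low *MYC* of RVC and RVT among them: the transcription factor *MYC*, its partner *MAX*, the competitors *MXD4* and *MNT*, and the growth-related targets *ODC1*, *NPM1*, *NCL* and *FBL*. They are 8 of the 34241 genes listed in the deposited tables, 8 of the 32991 listed in all 4 tables, and all 8 were among the 8839 genes that reached a mean of 5 CPM over the 4 libraries, where CPM are unique molecular identifiers (UMIs, 1 per captured transcript) per 1000000 UMIs of a library. The study made droplet-based single-cell RNA-seq libraries from A375, an established human melanoma line with the BRAF V600E mutation, in 4 conditions. S cells were untreated and sensitive, RV cells had been made resistant to the BRAF inhibitor vemurafenib, RVC cells to vemurafenib with the MEK1/2 inhibitor cobimetinib, and RVT cells to vemurafenib with trametinib, another MEK1/2 inhibitor. The 3 resistant cultures were grown for 10 to 14 days on drug below its IC50, and the drugs were taken away 24 h before capture, so every library was measured without drug in the medium. The question was whether the targets followed *MYC*, whose level is low in RVC and RVT.

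MYC is a basic helix-loop-helix leucine zipper protein that binds DNA as a dimer with MAX, at E-boxes whose canonical form is CACGTG. MXD4 and MNT also dimerise with MAX, occupy the same boxes and repress, so the balance of these proteins is held to set the output of growth genes such as those for ribosome assembly, nucleotide synthesis and polyamine synthesis. In BRAF-mutant melanoma the RAS-RAF-MEK-ERK pathway that the drugs block is known to raise *MYC* transcription and to stabilise the protein. The libraries measured RNA alone.

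Each condition had 1 library, so no difference between conditions has a replicate check, no test across conditions was possible and no p-value is given. Levels are given in CPM, and the intervals are exact 95% intervals that cover counting error only, since PCR, culture and capture add spread that 1 library cannot show. The libraries held 6334 (S), 4177 (RV), 7623 (RVC) and 8445 (RVT) cells after filtering, with a median depth of 8806.5, 11553, 3959 and 2871 UMIs per cell, so shares of cells with a UMI are given after thinning each cell to 1500 UMIs, which left out 0, 0, 397 and 845 shallower cells. Pairs of libraries shared 36 to 105 cell barcodes, at most 1.38% of the smaller library. The S and RV tables list 703 genes that the RVC and RVT tables lack, and the latter 547 that the former lack, so a difference in gene annotation or run cannot be told apart from the difference between these pairs of conditions. The log2 ratio across all genes went with the GC content of the transcript's last 500 bases in RVC over S (Spearman's rho -0.35 across genes, which are not independent replicates) and in RVT over S (-0.40), but not in RV over S (0.003), and its part in the results was not tested beyond the GC-centred values given at the end. Of 8 melanocyte lineage markers, *TYR* was at 0 UMIs in every library, *PMEL*, *MLANA* and *DCT* stayed under 1 CPM in all of them, and their summed level was 195 CPM for S and 81.4 for RV, against 8.58 for RVC and 61.8 for RVT. *SOX10*, a defining transcription factor of the lineage, had 86.3 CPM in S, 39.9 in RV, 19.4 in RVT and no UMI in RVC, while *MITF*, another, had 9.78, 20.2, 8.13 and 41.2 CPM in S, RV, RVC and RVT and made up most of the RVT sum. Of 9 markers of blood, endothelial, epithelial and fibroblast cells, *PTPRC* and *CDH1* were at 0 in all 4 libraries, and the summed level was 36.0, 71.7, 195 and 93.8 CPM in S, RV, RVC and RVT, mostly *CD68* and, in RVC and RVT, the matrix gene *LUM* at 22.6 and 21.8 CPM. The part of these marker differences in the results was not tested.

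In GENCODE release 29 (GRCh38), *MAX* (ENSG00000125952) lies at chr14:65006174-65102695 on the minus strand, opposite *FNTB* and *CHURC1-FNTB*. *MXD4* (ENSG00000123933) lies at chr4:2247432-2262294 and *MNT* (ENSG00000070444) at chr17:2384060-2401118, both on the minus strand. *ODC1* (ENSG00000115758) is at chr2:10439968-10448504 and *NCL* (ENSG00000115053) at chr2:231453531-231483641, both on the minus strand, and both host small nucleolar RNA genes in their bodies. *NPM1* (ENSG00000181163) is at chr5:171387116-171411137 on the plus strand and *FBL* (ENSG00000105202) at chr19:39834458-39846414 on the minus strand. *NPM1* has 45 numbered pseudogenes in that annotation and *NCL* has 2, with which reads could be shared, so their absolute levels are less certain than those of the other 6 genes.

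The E-box was looked for in RefSeq promoter windows (GRCh38.p14) that run from 250 bases before to 50 after each listed start, because it is the site at which MYC and its competitors meet. CACGTG reads the same on both strands, and a search of the windows found it for *MXD4*, *MNT*, *ODC1* and *FBL*. Each is printed 5′ to 3′ on the minus strand, the strand of the gene, with the E-box in capitals, and its distance is from the listed start to the box's 5′ base.
MXD4, chr4:2262330-2262359, 238 bases before the start: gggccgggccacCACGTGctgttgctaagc
MNT, chr17:2401236-2401265, 193 bases before the start: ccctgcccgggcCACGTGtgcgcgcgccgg
ODC1, chr2:10448024-10448053, 29 bases before the start: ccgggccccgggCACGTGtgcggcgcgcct
ODC1, chr2:10447990-10448019, 5 bases after the same start: ggcctgcggagaCACGTGgtcgccgagcgg
FBL, chr19:39846356-39846385, 6 bases after the start: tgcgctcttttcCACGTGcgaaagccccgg
The pair of boxes in *ODC1* flank 1 of its 2 listed starts. No CACGTG stood in the windows of *MAX* (2 windows), *NPM1* (2) or *NCL* (1), and for *MYC* no window was used here. Of all 35116 promoter windows, 7.26% held the box. By gene, 8.77% of 27305 genes had it in a window, and of the MYC target list described further on, 25 of the 46 genes with a window held it (54.3%). A match is a string of letters in a window and not a measured binding site.

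*MYC* itself was far lower in both double-resistant cultures than in S or RV. The gene (ENSG00000136997) lies at chr8:127735434-127741434 on the plus strand in GENCODE 29, with no overlapping gene. Its level in S was 21.1 CPM (95% interval 19.9 to 22.3, 1237 UMIs) and in RV 18.6 (17.5 to 19.9, 977 UMIs), against 0.940 in RVC (0.639 to 1.33, 31 UMIs) and 2.09 in RVT (1.56 to 2.73, 53 UMIs). Over all cells RV was 1.13-fold below S (1.04 to 1.23), but in thinned cells with at most 1 UMI of G2/M genes RV had 13.0 CPM and S 24.9, a log2 ratio of -0.93. RVC was 22.4-fold below S (15.7 to 33.2) and RVT 10.1-fold below S (7.69 to 13.6). The order was RVC, RVT, RV and S, and none of the counting intervals between neighbours in it included a ratio of 1. After thinning, 2.98% of S cells had a *MYC* UMI (2.58 to 3.43), against 2.66% of RV, 0.194% of RVC and 0.329% of RVT cells. In the unthinned data the 31 UMIs of RVC lay in 31 different cells and the 53 of RVT in 53, so no cell of these libraries had more than 1 captured *MYC* UMI. Free RNA in droplets can leave single UMIs in cells that do not express a gene, and with a single cell line in each library no cell class that should lack *MYC* was at hand to measure it. RVT was 2.22-fold above RVC (1.40 to 3.58), a ratio that came to under 2-fold with TMM scaling or with centring on the median gene or within GC bins. In cells with at most 1 G2/M UMI, RVC had no *MYC* UMI and RVT 9, which sets no ratio between them. The other family members did not stand in for it at the RNA level: *MYCL* had 23 UMIs in S and RV, 5 in RVC and 7 in RVT, and *MYCN* had 1, 0, 0 and 1. Only 0.973% of the tested genes had a lower ratio than *MYC* in RVC over S, and 2.56% in RVT over S. *MYC* was listed with its low level in these cultures known, so these ranks only describe it.

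**Figure D1:**
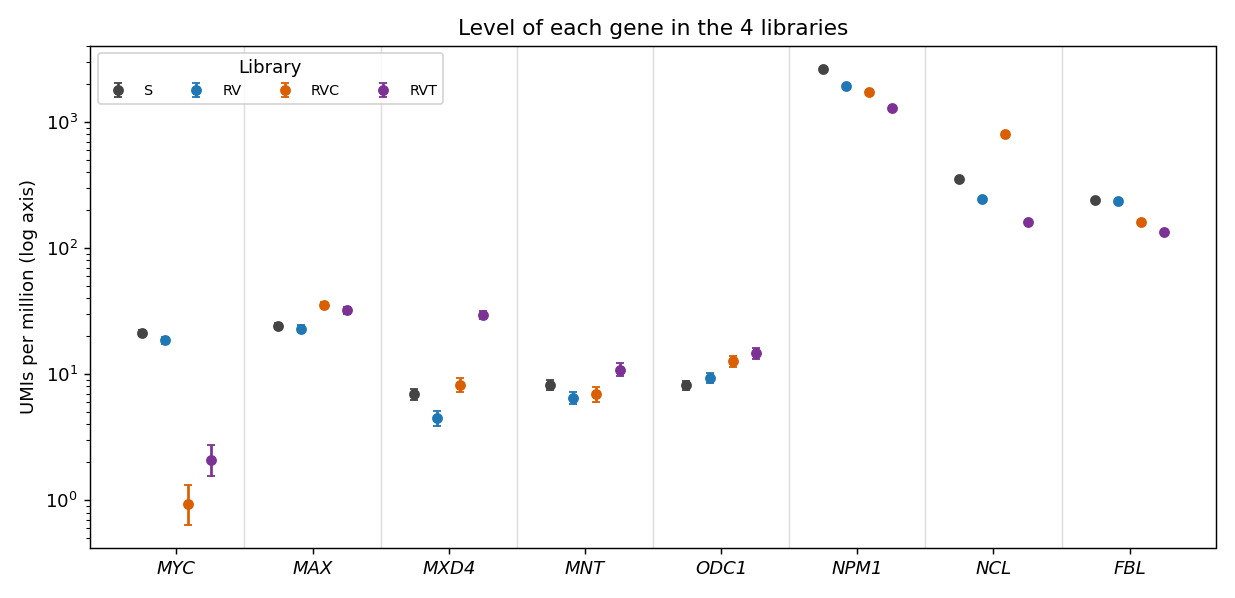
CPM (log axis) of the 8 genes in the 4 libraries, S untreated, RV vemurafenib-resistant, RVC and RVT resistant to vemurafenib with cobimetinib or trametinib. Points are library sums and bars exact Poisson 95% intervals of counting error. *MYC* is low in RVC and RVT, *NCL* is highest in RVC at 809 CPM, and *MXD4* is highest in RVT at 29.6 CPM.

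*MAX*, the obligate partner of MYC and of its competitors, did not follow *MYC*. S and RV had 24.1 and 23.0 CPM, RVC 35.7 and RVT 32.1, from 816 to 1410 UMIs. RVC was 1.48-fold above S (1.37 to 1.60) and RVT 1.33-fold (1.22 to 1.46), and S and RV did not differ beyond counting error (S over RV 1.04-fold, 0.966 to 1.13). These ratios were small beside those of other genes: the log2 ratio of 0.57 in RVC over S and of 0.42 in RVT over S stood 0.35 and 0.08 above that of the median gene. Under TMM scaling, which sets libraries level on a trimmed mean of gene ratios, and with centring within bins of GC content, the direction in RVT over S turned, to log2 ratios of -0.10 and -0.18.

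*MXD4*, which encodes a MAX-binding repressor, was the network member furthest above S, in RVT. Its level was 29.6 CPM in RVT (752 UMIs, 27.5 to 31.8), against 6.95 in S (407 UMIs), 4.47 in RV (234) and 8.22 in RVC (271). RVT was 4.26-fold above S (3.77 to 4.82) and 3.60-fold above RVC (3.13 to 4.15), while RV, S and RVC lay between 4.47 and 8.22 CPM. Cells with an *MXD4* UMI made up 4.54% of RVT cells at 1500 UMIs, against 0.884% of S, 0.622% of RV and 1.36% of RVC. The last 500 bases of its transcript hold 60.8% G and C, more than in 94.8% of genes. Centring within GC bins raised its log2 ratio over S from 0.24 to 2.41 in RVC and from 2.09 to 4.31 in RVT. In cells with at most 1 G2/M UMI the ratio in RVC was 1.08, from only 15 UMIs in RVC and 33 in S. How far RVC stood above S thus depended on the setting. *MNT*, the other repressor member, stayed within a narrow range, with 8.22 CPM in S and 10.9 in RVT around 6.51 in RV and 6.92 in RVC, and RV and RVC did not differ beyond counting error. RVT was 1.32-fold above S (1.14 to 1.53), 0.07 above the median gene on the log2 scale. Its direction over S turned in RVT with TMM scaling, to a log2 ratio of -0.11. In RVC over S the log2 ratio of *MNT* was 0.07 in cells with at most 1 G2/M UMI. That rests on 11 UMIs in RVC (10.9 CPM, 5.44 to 19.5) and 49 in S (10.4, 7.70 to 13.8), with overlapping intervals.

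The rest of the MYC-MAX-MLX network adds 9 genes to the 4 above, of which 4 reached 5 CPM in the mean. *MXI1*, a further MAX-binding repressor, was at 19.5 CPM in RVT, against 10.2 in S, 8.51 in RV and 8.04 in RVC. *MGA*, a large MAX partner, was at 4.45, 4.16, 8.49 and 13.0 CPM, 2.92-fold higher in RVT than in S. In the parallel MLX branch, which senses glucose metabolites, *MLXIP* was at 14.4, 12.1, 43.8 and 33.9 CPM, past 2-fold over S in RVC and RVT. Its partner *MLX*, at 41.0, 43.5, 79.9 and 59.9 CPM, was not past 2-fold (1.95-fold and 1.46-fold), and *MLXIPL*, the relative of *MLXIP*, had 15, 23, 3 and 1 UMIs. *TXNIP*, the best known target of that branch, reached 590.43 CPM in RVT, 23.0-fold above the 25.6 CPM of S, with 11.8 in RV and 67.9 in RVC. Among the members under 5 CPM, *MXD1* was at 8.34 CPM in RVT against 3.89 in S, and *MXD3*, the member linked to S phase, at 2.40 against 7.17. *MXD1* overlaps *SNRNP27* and *MXD3* overlaps *RAB24* on the same strand, so their counts depend on how shared reads were assigned. Counted at 2-fold, 1 of the 8 network genes above 5 CPM was lower in RVT than in S (*MYC*) and 3 were higher (*MXD4*, *MGA* and *MLXIP*), or 12.5% and 37.5% against 22.2% and 31.3% of all tested genes, and the list's median log2 ratio was 0.74 beside 0.34 for all tested genes.

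The 4 targets gave 3 different patterns, and none was as far below S as *MYC* in RVC and RVT. *NPM1* and *FBL* were below S in both, *ODC1* was above S in both, and *NCL* was above S in RVC and below it in RVT. *ODC1*, which encodes ornithine decarboxylase, the rate-limiting enzyme of polyamine synthesis and a classical MYC target, was higher in both cultures with low *MYC*. S had 8.16 CPM (478 UMIs) and RV 9.35 (490), while RVC had 12.7 (419) and RVT 14.7 (374). RVC was 1.56-fold above S (1.36 to 1.78) and RVT 1.80-fold (1.57 to 2.07), and the log2 ratios of 0.64 and 0.85 stood 0.43 and 0.52 above the median gene. The direction over S held under every setting tried, with log2 ratios from 0.43 to 0.75 in RVC and from 0.34 to 1.51 in RVT. Shares of cells had the same order, from 0.884% in S to 2.49% in RVT.

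*NPM1*, encoding nucleophosmin, the abundant nucleolar chaperone of ribosomal proteins, decreased step by step from S to RVT. From 2640.0 CPM in S it went to 1942.4 in RV, to 1719.5 in RVC and to 1306.5 in RVT, each neighbour apart by more than counting error. RVC was 1.54-fold below S and RVT 2.02-fold below (2.00 to 2.04), an interval that reaches the 2-fold line. Relative to the median gene, the log2 ratios over S were -0.83 in RVC and -1.35 in RVT. With centring within GC bins, RVC over S was past 2-fold too, at a log2 ratio of -1.04. RV, whose *MYC* level over all cells was near that of S, was 1.36-fold below S. After thinning, 96.1% of S, 92.1% of RV, 84.8% of RVC and 83.4% of RVT cells had an *NPM1* UMI. Cells differed among themselves most in RVC, where the variance of thinned *NPM1* UMIs was 1.92 times their mean, against 1.47 in S, 1.33 in RV and 1.17 in RVT.

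*FBL*, encoding fibrillarin, the methyltransferase of box C/D small nucleolar ribonucleoproteins, kept its level in RV and was lower in both double-resistant cultures. S and RV had 242 and 237 CPM, RVC had 160 and RVT 133, and S and RV did not differ beyond counting error (1.02-fold, 0.996 to 1.05). RVC was 1.51-fold below S (1.46 to 1.56) and RVT 1.81-fold below (1.75 to 1.88), with log2 ratios of -0.81 and -1.19 relative to the median gene. Like *MYC*, *FBL* had S and RV together above RVC and RVT, but it was within 2-fold of S in both and was lower in RVT than in RVC, the reverse of *MYC*. In RVT over S it was past 2-fold with TMM scaling and with centring on the median gene or within GC bins, at log2 ratios from -1.38 to -1.11, and in cells with at most 1 G2/M UMI RVT was no longer below RVC (log2 ratio 0.08).

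*NCL*, encoding nucleolin, a nucleolar RNA-binding protein that acts early in ribosome assembly, separated the double-resistant cultures. RVC had 809 CPM (800 to 819, 26682 UMIs) and RVT 160 (155 to 165, 4066 UMIs), on either side of the 353 CPM of S and the 245 of RV. RVC was 2.29-fold above S (2.25 to 2.33) and RVT 2.21-fold below (2.14 to 2.28), so RVT was 5.06-fold below RVC (4.89 to 5.23) although *MYC* was low in both. Relative to the median gene, the log2 ratios over S were 0.98 in RVC and -1.48 in RVT. Cells with an *NCL* UMI after thinning made up 63.8% of RVC but 20.1% of RVT, beside 39.7% of S and 30.5% of RV. The direction held under every setting tried, but the gain in RVC came to under 2-fold with TMM scaling, with centring on the median gene or within GC bins, and in cells with at most 1 G2/M UMI, where its log2 ratio was lowest at 0.67.

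**Figure D2:**
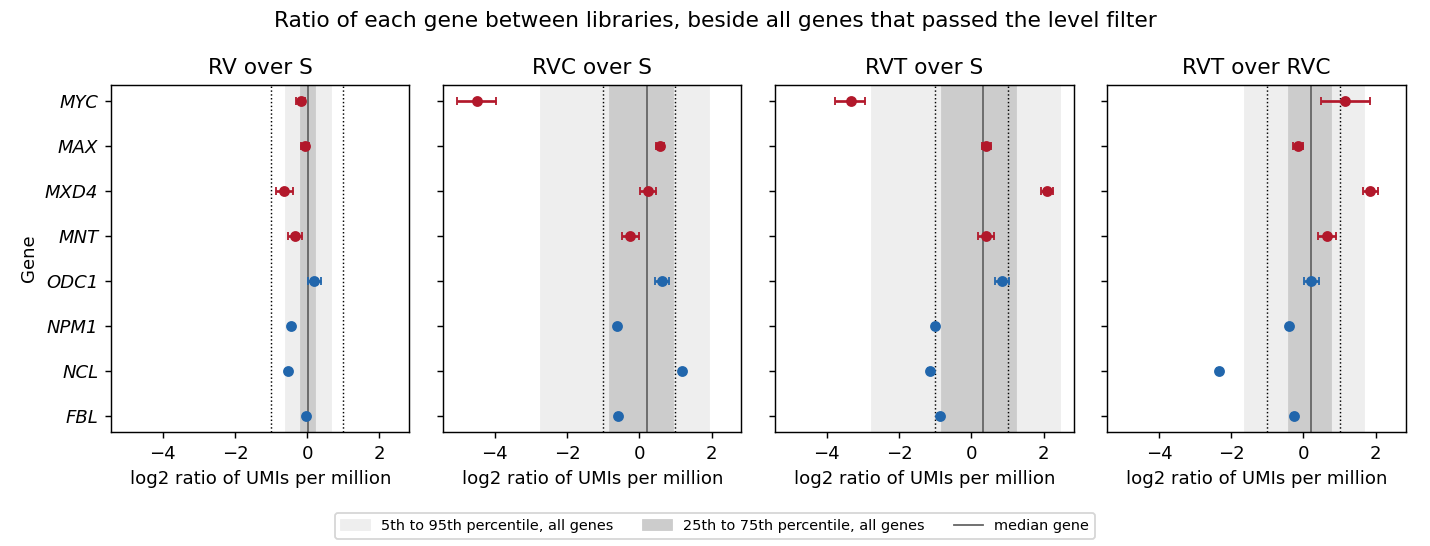
Log2 ratio of CPM for the 8 genes in 4 comparisons, with exact 95% counting intervals (red, network members, and blue, targets), over the spread of all 8839 tested genes (grey bands) and their median (line). Dotted lines mark 2-fold. *MYC* lies outside the band from the 5th to the 95th percentile in RVC and RVT over S, the targets lie inside it there, and in RVT over RVC *NCL* lies below it and *MXD4* above it.

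Counted over the 8 genes, none was 2-fold lower or higher in RV than in S, where 1.74% and 2.22% of the 8839 tested genes were. In RVC over S, 1 was lower (*MYC*) and 1 higher (*NCL*), against 22.0% and 22.9% of tested genes. In RVT over S, 3 were lower (*MYC*, *NPM1* and *NCL*) and 1 higher (*MXD4*), against 22.2% and 31.3%. RVT over RVC had 1 lower (*NCL*) and 2 higher (*MYC* and *MXD4*), against 11.2% and 17.3%. With backgrounds of this size in RVC and RVT, counts of 1 to 3 of 8 are no result about these genes as a set. By size, *MYC* in RVC and RVT over S, *NCL* and *MXD4* in RVT over RVC and *MXD4* in RV over S lay outside the range from the 5th to the 95th percentile of tested genes. For *MYC* this low level was known when the gene was listed. In cells with at most 1 G2/M UMI, *MXD4* in RV over S had a log2 ratio of 0.11 in place of -0.64. That rests on 18 UMIs in RV (7.55 CPM, 4.48 to 11.9) and 33 in S (7.01, 4.83 to 9.85). These intervals overlap, so no direction is read from it. RV, RVC and RVT over S share the S library, so the 3 comparisons are not independent of each other. The split into higher and lower depends on scaling: with TMM factors, 31.5% of tested genes were 2-fold lower and 17.7% higher in RVT over S, and 26.0% and 16.3% in RVC over S, since TMM moved the median log2 ratio of all genes from 0.34 to -0.21 and from 0.21 to -0.02.

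A wider list of 57 MYC targets was written after the second Hallmark set of MYC targets, without *MYC* itself. Of the 4 target members it holds *NPM1* alone, so *ODC1*, *NCL* and *FBL* are not part of its values. In RV over S its 51 genes above 5 CPM had a median log2 ratio of 0.00 and none passed 2-fold. In RVC over S, 16 of the 51 were 2-fold lower (31.4%, against 22.0% of tested genes) and 4 higher (7.84%, against 22.9%), with a median of -0.49 beside 0.21 for all tested genes. Among the 33 genes with a mean of at least 20 CPM, 9 were 2-fold lower (27.3%, against 25.9% of tested genes at that level), so the excess in lower genes was small there, with a median of -0.35 beside 0.08. It was larger in cells with at most 1 G2/M UMI, where 23 of 49 were 2-fold lower (46.9%, against 24.7%). The median in those cells was -0.99 beside 0.11. In RVT over S, 31 were 2-fold lower (60.8%, against 22.2%) and 0 higher (against 31.3%), with a median of -1.26 beside 0.34. In RVT over RVC, 21 of 51 were 2-fold lower (41.2%, against 11.2%) and 0 higher (against 17.3%), with a median of -0.84 beside 0.22. That comparison depended on the cells used. In cells with at most 1 G2/M UMI, 7 of 49 were 2-fold lower and 7 higher. Each was 14.3%, against 9.68% lower and 20.8% higher among tested genes, and the median was -0.31 beside 0.29. RVC had only 673 such cells, where 3 UMIs stand at 2.97 CPM, so genes at a few CPM carry wide counting error. The part of this low depth in the change was not tested. A list of G1/S genes, which shares *MCM4*, *MCM5* and *UNG* with the target list, also had lower levels in RVT, with 19 of 37 genes 2-fold lower and 0 higher over S (median -1.03) and 28 and 0 over RVC (-1.56), while in RVC over S 3 were lower and 9 higher (0.70). Its part in the target list's values was not tested. The summed level of the list was 6574 CPM for S, with 5737 and 5887 for RV and RVC and 3226 for RVT. Each gene was left out of the sum in turn, a check added after the data were seen, and 3 of the 57 changed the order of S, RV and RVC, so no order of these is read from it. Without *NPM1* the other 56 genes summed to 3934 CPM for S, 3795 and 4167 for RV and RVC and 1920.0 for RVT. Without *HSPE1* RVC had 4704 CPM, below the 5441 of RV, and without *HSPD1* 5430, below 5452. RVT was lowest whichever gene was left out. The 3 largest decreases were of *PPAN*, *NOC4L* and *EXOSC5* in RVC over S and of *EXOSC5*, *PPAN* and *RRP9* in RVT over S. *EXOSC5*, a subunit of the RNA exosome, went from 149 CPM in S to 17.9 in RVC and 5.20 in RVT, *NOC4L*, of the small-subunit pathway, from 19.5 to 1.79 and 1.69, and *RRP9*, of the U3 small nucleolar ribonucleoprotein, from 34.7 to 4.88 and 2.79. *PPAN* went from 39.7 to 2.94 and 2.32 CPM, but it overlaps *PPAN-P2RY11* on the same strand, so its counts depend on how shared reads were assigned. The largest rises in RVC were of *HSPE1*, a mitochondrial chaperonin partner (289 CPM in S, 1182.6 in RVC, 449.72 in RVT; it overlaps *HSPE1-MOB4*), the replication helicase gene *MCM4* (15.3, 34.6 and 15.8) and *TCOF1*, a nucleolar factor of ribosomal RNA transcription (53.4, 112 and 36.3). Without the 9 genes that overlap another gene on the same strand, 12 of 42 were 2-fold lower and 3 higher in RVC over S, and 25 and 0 in RVT over S.

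The list was also divided by the E-box, with no replicate against which to read the medians. In RVC over S, the 23 listed genes above 5 CPM with CACGTG in a promoter window had a median log2 ratio of -0.75 and the 18 without it -0.42, and 9 of 23 and 4 of 18 were 2-fold lower (39.1% and 22.2%, against 24.3% and 21.1% of all tested genes with and without it). In RVT over S the medians were -1.29 and -1.27, and 14 of 23 and 12 of 18 were 2-fold lower (60.9% and 66.7%, against 25.1% and 21.3%). Over all tested genes with a window, the 929 with the box had a median of 0.10 in RVC over S and the 6137 without it 0.22, and 0.17 against 0.36 in RVT over S. Among the members, *FBL* held the box and was lower in both, *ODC1* held a pair of boxes and was higher in both, and *NPM1* and *NCL* had none in these windows. The string CACGCG, which differs from the box in 1 base, was counted on both strands. It stood in windows of *NPM1*, *ODC1* and *FBL* but not of *NCL*, and in those of 13.5% of all 27305 genes.

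**Figure D3:**
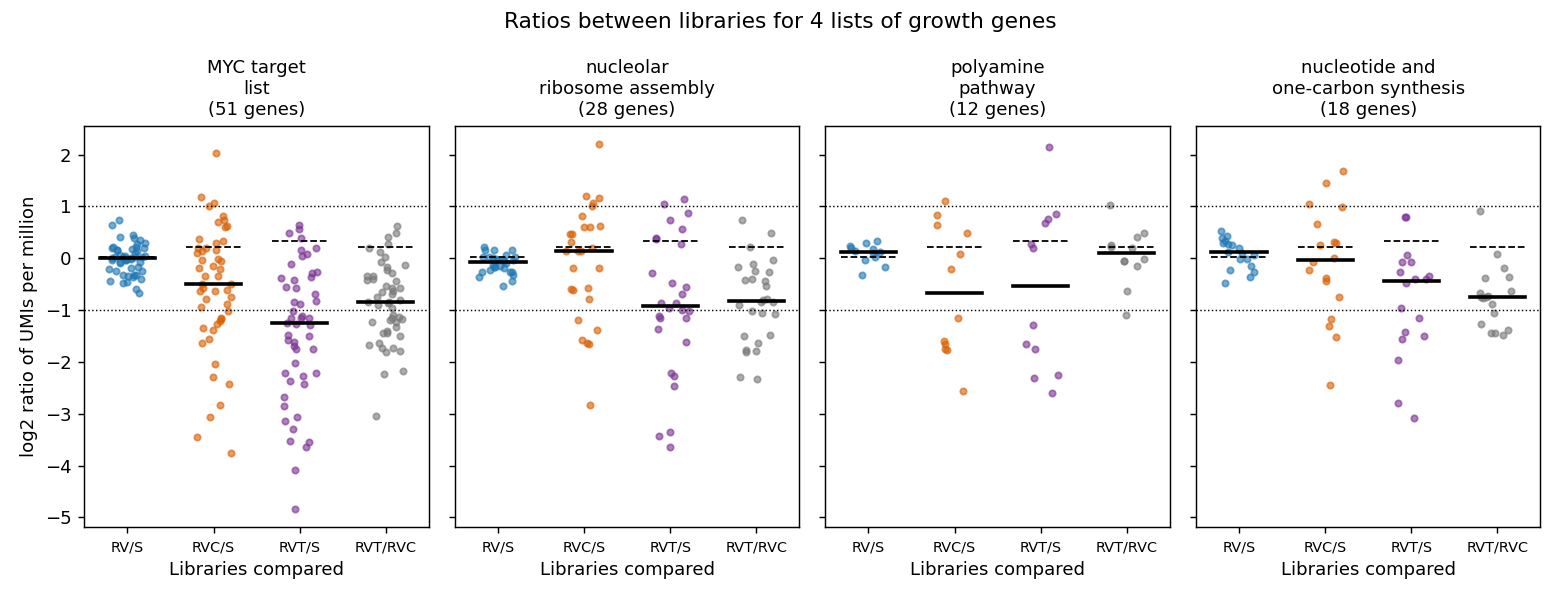
Log2 ratios of CPM for the genes of 4 lists above the level filter, 1 point a gene, in 4 comparisons. Solid bars are the list's median, dashed bars the median of all 8839 tested genes, and dotted lines 2-fold. The MYC target list has its lowest median, -1.26, in RVT over S, and the polyamine pathway has 6 of 12 genes 2-fold lower in RVC and in RVT over S.

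Ribosome assembly in the nucleolus, to which *NPM1*, *NCL* and *FBL* belong, was followed over 28 genes, 11 of them shared with the target list. In RVC over S, 6 were 2-fold lower (21.4%, against 22.0% of tested genes) and 5 higher (17.9%, against 22.9%), with a median log2 ratio of 0.15, which is near the background. In RVT over S 13 were lower (46.4%, against 22.2%) and 2 higher (7.14%, against 31.3%), with a median of -0.92. The 5 higher in RVC were *NCL*, *NOP10*, *SNU13*, *NOLC1* and *TCOF1*. *NOP10*, of the box H/ACA particle that makes pseudouridine, had 289 CPM in S and 1332.5 in RVC, and *SNU13*, a protein of box C/D particles like *FBL*, 395 and 887. *NHP2*, which sits beside *NOP10*, went the other way, from 654 CPM in S to 209 in RVC and 60.3 in RVT. Not every other part of that particle was lower in RVC than in S. *BOP1*, of the large-subunit PeBoW complex, went from 34.7 to 11.6 and 3.38 CPM. *POLR1A* and *RRN3*, which encode a subunit of RNA polymerase I and the factor that recruits it, were 2.06-fold and 1.84-fold higher in RVT than in S, on levels of 5.90 and 9.97 CPM in S. In RVT over RVC, 11 of 28 were lower and 0 higher at 2-fold, against 11.2% and 17.3% of tested genes.

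Around *ODC1*, genes of the polyamine pathway lay on both sides of their level in S. *AMD1*, which supplies the propylamine donor, was at 38.0 CPM in S, 53.4 in RVC and 63.9 in RVT, and *AZIN1*, the protein that protects ornithine decarboxylase from antizyme, at 27.2, 48.6 and 43.8, all within 2-fold of S as *ODC1* was. *AZIN2*, a relative of *AZIN1*, was at 3.92, 0.546 and 1.06 CPM. *OAZ1*, the antizyme that sends ornithine decarboxylase to degradation, was lower, at 498 CPM in S, 164 in RVC and 159 in RVT, while *OAZ2* was at 59.8, 63.1 and 72.1. *SRM*, which makes spermidine, lay at 33.8, 29.3 and 38.8 CPM, and *SMS*, which makes spermine, at 238, 75.05 and 48.2. The catabolic gene *SAT1* was 2.17-fold higher in RVC than in S and 4.44-fold in RVT, and the oxidase gene *SMOX* was 3.43-fold and 2.44-fold lower. The hypusine branch, by which spermidine modifies a translation factor, was lower in all 3 genes, with *EIF5A*, the factor, at 622 CPM in S, 281 in RVC and 131 in RVT, *DHPS* at 123, 36.6 and 36.4, and *DOHH* at 15.4, 2.61 and 2.52. In all, 6 of 12 pathway genes above 5 CPM were 2-fold lower and 1 higher (*SAT1*) in both RVC and RVT over S (50% and 8.33%, against 22.0% and 22.9% of tested genes in RVC and 22.2% and 31.3% in RVT), and none passed 2-fold in RV over S. *OAZ1* and *DHPS* each overlap another gene on the same strand. Without them, 4 of 10 genes were 2-fold lower and 1 higher in both RVC and RVT over S. The list's median log2 ratio then went from -0.68 to -0.06 in RVC over S and from -0.54 to 0.24 in RVT over S.

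Nucleotide and one-carbon synthesis, a further branch of growth metabolism that MYC is known to drive, had 18 genes above 5 CPM. In RVC over S 4 were 2-fold lower and 3 higher (22.2% and 16.7%, near the 22.0% and 22.9% of tested genes), and in RVT over S 7 were lower and 0 higher (38.9% and 0%, against 22.2% and 31.3%). The mitochondrial folate genes *MTHFD2* and *SHMT2* went from 276 to 50.9 and 32.7 CPM and from 162 to 65.9 and 41.5 in S, RVC and RVT, and *IMPDH1*, of guanine nucleotide synthesis, from 25.3 to 8.80 and 3.66. *PRPS1*, *UMPS* and *NME1* were higher in RVC, at 3.20-fold, 2.74-fold and 2.06-fold. *CAD*, whose promoter is a classical MYC target, was at 12.6 CPM in S, 24.9 in RVC and 21.8 in RVT, so like *ODC1* it was not lower where *MYC* was low.

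Genes that act on *MYC* itself were also measured. *FBXW7*, the ubiquitin ligase subunit that marks MYC for degradation, was at 5.75 CPM in S, 6.73 in RVC and 19.2 in RVT. *CTCF*, an insulator protein, and *IGF2BP3*, which stabilises *MYC* RNA, were 2.70-fold and 2.68-fold higher in RVC and 2.86-fold and 2.93-fold in RVT. *AURKA* and *CIP2A*, which stabilise the protein and vary with mitosis, were 3.30-fold and 3.09-fold higher in RVC and 1.36-fold higher and 1.25-fold lower in RVT. Of 13 such genes above 5 CPM, 6 were 2-fold higher in RVC over S and 4 in RVT over S (46.2% and 30.8%, against 22.9% and 31.3% of tested genes). Of 9 genes that MYC is known to repress, 4 reached 5 CPM: *CDKN1A*, the p21 gene, was at 102, 248, 137 and 112 CPM in S, RV, RVC and RVT, *CDKN1B*, the p27 gene, at 9.42, 6.97, 9.04 and 44.9, *GADD45A* at 75.9, 144, 13.0 and 7.16, and *NDRG1* at 9.73, 13.3, 15.1 and 10.2. These genes did not rise together in RVC and RVT, and *GADD45A* was 10.6-fold lower in RVT than in S.

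Because growth genes vary with the cell cycle, and the cultures differed in it, the levels were read again in cells sorted by the UMIs of 54 G2/M genes at 1500 UMIs a cell. Cells with 5 or more G2/M UMIs were 19.8% of S, 29.1% of RV, 65.3% of RVC and 6.08% of RVT, and cells with at most 1 were 49.5%, 38.0%, 9.31% and 66.5%. No member and no gene of the target list is in the G2/M list. The classes are cut on captured UMIs alone, so the same class need not hold the same cell cycle phase in each library. *NCL* went with this measure in RVC, at 523 CPM in cells with at most 1 G2/M UMI, 716 with 2 to 4 and 882 with 5 or more, but the lowest of these was above all 3 classes of S, at 329, 396 and 376 CPM. In RVT the classes had 145, 164 and 209 CPM, below every class of S. The target list summed to 4132 CPM, 5399 and 6273 over the 3 classes of RVC and to 6419, 6764 and 6666 in S, sums in which *NPM1* weighs most. In RV it summed to 4847.5, 5926 and 6694 CPM. In RVT it stayed at 3126, 3179 and 3942 CPM. *NPM1* in RVT was nearly flat over the classes, at 1298, 1284 and 1204 CPM. *MYC* stayed low in every class of both double-resistant cultures, from 0 UMIs in 673 RVC cells (where the limit of 3 UMIs used for a count of 0 stands at 2.97 CPM) to 4.81 CPM in the middle class of RVT. The RVT class with 5 or more G2/M UMIs held 1 *MYC* UMI in 462 cells, or 1.44 CPM. That is under the same limit, which stands there at 4.33 CPM. In S *MYC* was at 24.9, 16.5 and 14.4 CPM over the 3 classes and in RV at 13.0, 21.4 and 24.7, so the order of S and RV was not the same in each class. In RV *MYC* and the target list both rose over the classes, while in S *MYC* fell and the list did not. The part of the cell cycle in this was not tested. *MXD4* was lower in cells with 5 or more G2/M UMIs than in cells with at most 1 in all 4 libraries. It went from 32.8 to 13.0 CPM in RVT, 14.9 to 6.22 in RVC, 7.01 to 1.60 in S and 7.55 to 1.10 in RV. The class with 5 or more held only 9 *MXD4* UMIs in RVT, 3 in S and 2 in RV. The middle class of RVT was at 33.3 CPM, not below its first.

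**Figure D4:**
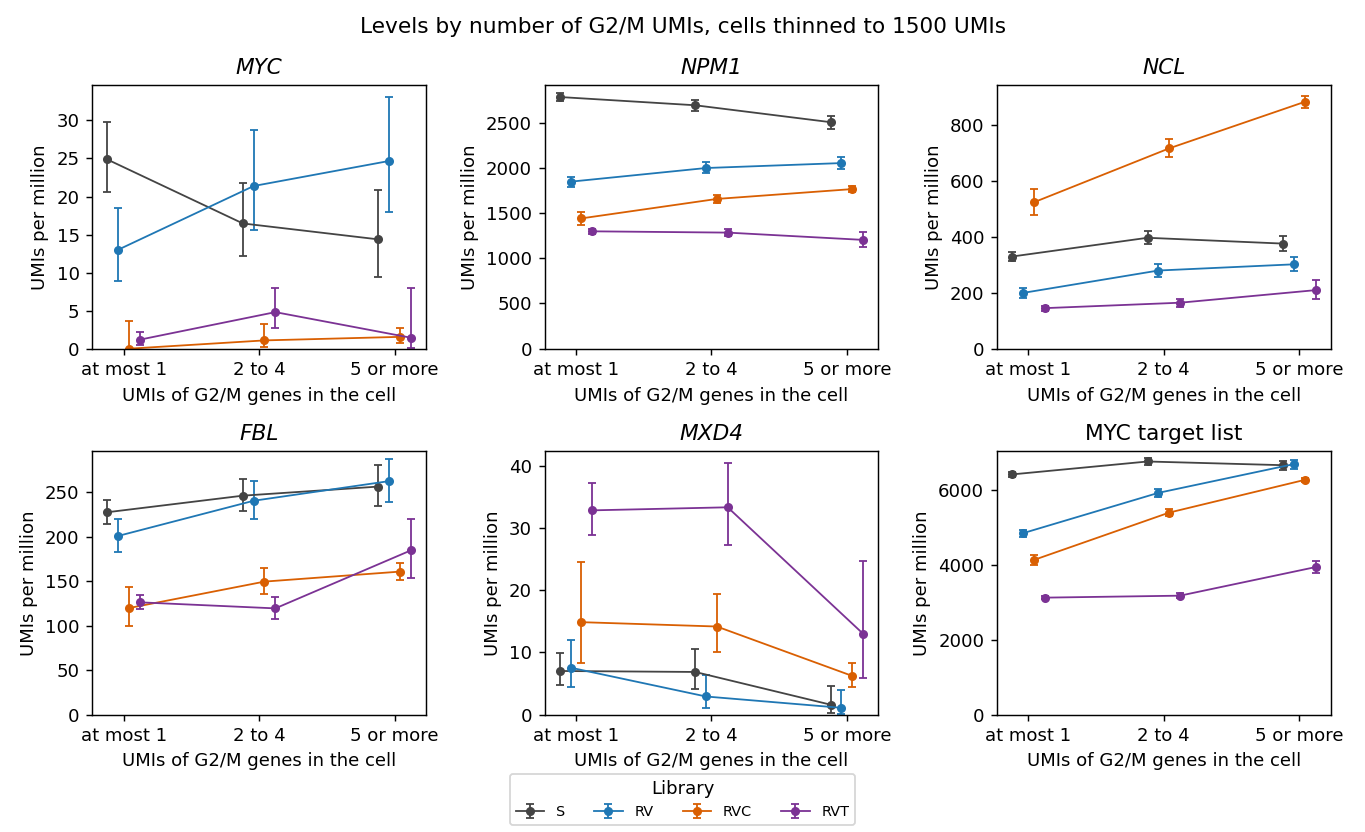
CPM of 5 genes and of the summed MYC target list in cells with at most 1, 2 to 4, and 5 or more UMIs of the G2/M genes, each cell thinned to 1500 UMIs, with exact Poisson 95% intervals of counting error. *NCL* in RVC lies above S in every class, and the target list in RVT lies below S in every class.

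In S and RV, where *MYC* was detected often enough, cells with a *MYC* UMI could be set beside cells without it at an equal depth of 5000 UMIs. In S, 539 cells (9.004%) had a *MYC* UMI and 5447 had none. *NCL* was at 428 CPM in the former and 354 in the latter (ratio 1.21, 1.14 to 1.29), and *NPM1* at 2890 and 2652 (1.09, 1.06 to 1.12). *FBL* did not differ beyond counting error, at 249 and 243 CPM (1.03, 0.946 to 1.11), nor did *ODC1*, at 7.42 and 7.86 (0.945, 0.566 to 1.496), *MAX*, *MXD4* or *MNT*. The target list summed to 7392 against 6524 CPM (1.13, 1.12 to 1.15). In RV, 324 cells (7.95%) had a *MYC* UMI, with ratios of 1.15 for *NCL* (1.04 to 1.26), 1.08 for *NPM1* (1.04 to 1.12), 1.10 for *FBL* (0.995 to 1.22) and 1.15 for the list (1.12 to 1.17). Cells of 1 library are not replicates, and these intervals again cover counting error only. At 1500 UMIs a cell the list's ratios were 1.19 in S and 1.15 in RV, while *NCL* had 1.13 (0.934 to 1.37) in S and 0.988 (0.709 to 1.34) in RV, both intervals including 1. At that depth *NPM1* had 1.18 (1.10 to 1.26) in S and 1.03 (0.924 to 1.15) in RV, and *FBL* had 1.48 (1.20 to 1.81) in S and 0.878 (0.606 to 1.23) in RV, so in RV none of the 3 intervals excluded 1. A cell with no *MYC* UMI at this depth is not a cell without *MYC*. The G2/M sum was lower in S cells with a *MYC* UMI, at 1535 against 1850 CPM, and higher in RV cells with it, at 2735 against 2348. The G1/S sum was also higher in those RV cells, at 1514 against 1215 CPM (1.25, 1.19 to 1.30), but not in those of S, at 905 against 963 (0.940, 0.902 to 0.980). The part of the cell cycle in these ratios was not tested.

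The genes whose levels over the 4 libraries were most like those of *MYC*, by the Euclidean distance of centred log2 CPM over 8212 genes with at least 10 CPM in their highest library, were *NOP53*, *SIGIRR*, *FUOM*, *SNHG7* and *LY6E*, at distances of 0.22 to 0.36. *NOP53*, a nucleolar protein of the large ribosomal subunit pathway, had 309 and 290 CPM in S and RV and 16.3 and 36.5 in RVC and RVT. Those most like the sum of *NPM1*, *NCL* and *FBL* included *WWTR1*, *UPF2*, *TRA2B* and *SOHLH2*, at distances of 0.095 to 0.16, and none of them is in the target list. With 4 libraries, these distances describe the samples at hand and say nothing of shared control.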

How the data were processed

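Each of the 4 A375 cultures was captured in 1 channel of a 10x Genomics Chromium with version 2 chemistry, 10000 cells loaded. Per the labels, the authors made a table of UMI counts per gene and cell for each library, and these deposited counts are raw whole numbers. The submitters' processing notes name bcl2fastq 2.20.0.422, Cell Ranger and the build GRCh38; the annotation release was not given in the sources used here. Barcodes with fewer than 500 genes or over 20% mitochondrial UMIs were removed, as were those with the highest scrublet scores (run in scanpy 1.11.5) at 0.8% per 1000 barcodes. The counts of the remaining cells were summed per library and divided by the library total (58602633 and 52389992 UMIs for S and RV, 32966141 and 25406813 for RVC and RVT) to give CPM. With 1 library per condition, no model was fitted. Ratios carry exact conditional binomial intervals, levels exact Poisson and shares Clopper-Pearson intervals, all 95%, and a 0 was taken as 3 UMIs. Ratios were counted at 2-fold over the genes whose mean over the 4 libraries reached 5 CPM. Cells were thinned without replacement to 1500 or 5000 UMIs. The code was checked on simulated sums. Symbols and positions came from GENCODE 29, and promoter windows from RefSeq (GRCh38.p14). The members and gene lists were chosen with earlier results of these data known. All 8 members and the network and polyamine genes could be named, and of other lists the 3 largest rises and falls in RVC and RVT over S above 5 CPM, besides the 5 genes most like *MYC* and most like the summed *NPM1*, *NCL* and *FBL*; *CAD* in RVC, and *OAZ2*, were named for their role. Some genes that these rules name are not reported here. TMM factors came from edgeR 4.0.16.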

Additional observations from a re-analysis of the deposited data

How the results depend on the processing

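No paired analysis was possible because the labels give each condition 1 library. All results rest on 1 library per condition, on shallow RVC and RVT cells and on low *MYC* counts there, and none of the intervals covers variation between cultures. Cell filters, doublet removal and equal weight per cell left every count of members and target-list genes past 2-fold within 1.5 times the values reported. *MYC* in RVC and RVT over S was past 2-fold in every setting, with log2 ratios from -5.16 to -3.06 and from -4.39 to -3.23 (the -3.06 is a bound, from 0 UMIs set to 3 in RVC cells with at most 1 G2/M UMI), and the target list's median in RVT over S ranged from -1.77 to -1.10. With TMM scaling or centring on the median gene, 0 members were higher in RVC over S and 1 in RVT over RVC, and 1 target-list gene was higher in RVC over S, as it was with library sizes that leave out ribosomal protein and mitochondrial genes. Of all tested genes, 16.3%, 16.6% and 17.2% were higher in RVC over S at these 3 settings. In RVT over RVC 9.42% were higher with TMM scaling and 11.5% with centring on the median gene. With centring within GC bins and in cells with at most 1 G2/M UMI, the 1 member higher in RVC over S was *MXD4* in place of *NCL*, in those cells on 15 RVC UMIs. With centring within GC bins, 2 members were lower in RVC over S (*MYC* and *NPM1*), 1 was higher in RVT over RVC, and 1 target-list gene was higher in RVT over S. Over all tested genes these shares were 21.7% lower in RVC over S, 11.1% higher in RVT over RVC and 20.7% higher in RVT over S. In cells with at most 1 G2/M UMI, 2 members were higher in RVT over S, and in RVT over RVC 1 was higher and 2 came out lower, of which *MYC* only by its bound, so that *NCL* alone was lower. The target list had 1 gene higher in RV over S, 2 in RVC over S, and 7 lower and 7 higher in RVT over RVC. Of tested genes there, 3.73% were higher in RV over S, 23.5% in RVC over S and 32.6% in RVT over S. In RVT over RVC 9.68% were lower and 20.8% higher. In those cells RVC had no *MYC* UMI and RVT had 9, so the log2 ratio of -1.32 for RVT over RVC, with the 0 set to 3, is a lower bound and no change of order. There *MYC* in RV over S moved from -0.18 to -0.93. With a level filter of 1 CPM or none, 2 target-list genes were higher in RVT over S and 2 in RVT over RVC, and with 20 CPM 9 were lower in RVC over S, of the 33 tested there (27.3%, against 25.9% of all genes at that level). Of all genes, 34.0% were higher in RVT over S and 21.6% in RVT over RVC with 1 CPM. With no filter these shares were 19.3% and 13.6%. At 1.5-fold, members lower numbered 1 in RV over S and 3 in RVC over S, and members higher 2 in RVC over S and 2 in RVT over S, while target-list genes numbered 2 lower and 2 higher in RV over S, 9 higher in RVC over S, 1 higher in RVT over S and 1 higher in RVT over RVC. Over all tested genes the 1.5-fold shares were 4.77% lower and 6.05% higher in RV over S, 29.6% and 37.7% in RVC over S, 28.7% and 42.8% in RVT over S and 19.7% and 33.0% in RVT over RVC. Except where a reason is given, the cause was not tested.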
